A study of Mus musculus with 10 samples.

Results

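The genes described here encode 42 enzymes that break down amino acids in the liver. They were taken by gene name from a count table of 54532 genes, and all 42 of 42 were found and passed the filter on low counts that left 14244 genes for testing. They are grouped by pathway, with 4 genes for phenylalanine and tyrosine, 5 for tryptophan and kynurenine, 4 for histidine, 2 for serine and threonine, 3 for the glycine cleavage system, 4 for glyoxylate, choline-derived glycines and pipecolate, 1 for lysine, 5 for proline, ornithine and glutamine, 4 transaminases of aspartate and alanine, and 10 for the branched-chain amino acids. RNA of whole mouse liver was sequenced from 5 animals given napabucasin and 5 given vehicle. Napabucasin (BBI608) is a small molecule known as a blocker of gene activation by STAT3, and mice received 20 mg for each kg of body weight by oral gavage on each of 7 days. The vehicle group received 1% NaCMC (sodium carboxymethyl cellulose) by the same route for the same 7 days. Both groups could eat and drink freely, and the labels name no genetic change in either. No source used here gives strain, sex, age or the hour at which livers were taken. The labels call the 5 libraries of each group biological replicates, and p-values here reflect only how these libraries vary.

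Hepatocytes remove the nitrogen of surplus amino acids and pass the carbon skeletons to glucose, ketone or energy metabolism. Transaminases move the amino group to a keto acid, dehydratases and lyases release it as ammonia, and the glycine cleavage system and histidine breakdown feed carbon into the folate pool. Many of these enzymes lie in mitochondria, most are far more abundant in hepatocytes than in other liver cells, and several are known for their control by glucagon, glucocorticoids and fasting.

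Library totals ran from 14124484 to 17759967 counts. The 42 genes took 1.24% ± 0.119 of all counts in vehicle livers and 1.13% ± 0.0551 in napabucasin livers (SD, n = 5). Hepatocyte markers were abundant in every library, and kidney tubule markers summed to at most 1.60 CPM (read counts divided by library size, on the usual CPM scale). Levels below are CPM scaled by TMM normalization, and ± gives the SD over the 5 libraries of a group, or the standard error beside a log2 fold change. Some libraries stood apart. Vehicle replicate 2 had the highest TMM factor, 1.23, and 0.912% of its counts in ribosomal RNA genes, and napabucasin replicates 1 and 2 had 1.10% and 1.09%, where the other 7 libraries had 0.195% to 0.455%. Mitochondrially encoded genes took 19.0% of counts in vehicle replicate 1 and 7.03% to 8.78% in the other vehicle libraries. In napabucasin libraries they took 9.03% to 19.9%, with the most in replicate 1.

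Promoter sequence is shown for 5 members whose values the results turn on, at a RefSeq start that does not lie inside the gene as the count table gives it. Gpt2, Got1, Hal and Gldc were among the 7 members lower at an unadjusted p under 0.05, and Bckdhb was among the 5 with a log2 fold change above 0. Each run is the 250 bases before the start (RefSeq, GRCm38.p6), written 5′ to 3′ on the gene's strand, with capitals marking motifs found by search.
Gpt2, chr8:85492326-85492575, plus strand: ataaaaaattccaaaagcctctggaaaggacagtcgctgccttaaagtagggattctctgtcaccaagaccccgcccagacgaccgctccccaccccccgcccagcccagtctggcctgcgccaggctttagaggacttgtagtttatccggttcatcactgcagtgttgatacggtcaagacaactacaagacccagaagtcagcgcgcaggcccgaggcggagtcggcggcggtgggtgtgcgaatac
Got1, chr19:43524606-43524855, minus strand: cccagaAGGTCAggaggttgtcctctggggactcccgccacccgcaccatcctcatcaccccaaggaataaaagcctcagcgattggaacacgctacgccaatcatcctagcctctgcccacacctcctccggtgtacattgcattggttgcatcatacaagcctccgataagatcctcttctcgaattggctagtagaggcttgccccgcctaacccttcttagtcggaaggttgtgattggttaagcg
Hal, chr10:93488518-93488767, plus strand: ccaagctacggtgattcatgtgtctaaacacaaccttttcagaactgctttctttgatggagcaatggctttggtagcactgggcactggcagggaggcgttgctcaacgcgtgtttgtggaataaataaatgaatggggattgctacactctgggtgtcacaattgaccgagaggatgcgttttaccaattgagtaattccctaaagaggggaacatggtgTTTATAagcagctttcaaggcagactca
Gldc, chr19:30175442-30175691, minus strand: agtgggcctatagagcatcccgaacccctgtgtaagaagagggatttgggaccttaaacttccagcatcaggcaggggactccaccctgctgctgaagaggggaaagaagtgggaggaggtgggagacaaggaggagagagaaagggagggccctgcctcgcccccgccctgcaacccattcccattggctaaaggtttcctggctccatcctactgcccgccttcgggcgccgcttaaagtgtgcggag
Bckdhb, chr9:83924887-83925136, plus strand: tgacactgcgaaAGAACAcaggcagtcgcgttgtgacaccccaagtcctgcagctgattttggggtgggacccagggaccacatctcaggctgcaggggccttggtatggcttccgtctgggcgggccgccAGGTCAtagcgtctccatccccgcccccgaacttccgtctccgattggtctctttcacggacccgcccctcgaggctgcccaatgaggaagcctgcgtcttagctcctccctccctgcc
In Got1 the capitals are AGGTCA, a core bound by many nuclear receptors, 244 bases before the start. In Hal they are TTTATA, the TATA box letters read from the other strand, 28 bases before the start. Bckdhb has AGAACA, a core of glucocorticoid receptor sites, at 238 bases and AGGTCA at 119. A further RefSeq start of Bckdhb lies inside its gene, and its run is not shown. The run of Gpt2 and that of Gldc hold none of the 7 motifs searched.

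RefSeq promoters were matched for 36 of the 42 members, and not for Sdsl, Dbt, Kynu, Gpt, Sds and Gls2. On either strand, AGGTCA was found for 12 of the 36 members (33.3%), against 14% of 32851 promoters of the same length. These 12 are Aass, Aldh6a1, Amt, Bckdhb, Got1, Got2, Haao, Hgd, Prodh2, Sardh, Tdo2 and Uroc1. The letters GTTAAT, part of the HNF1 site, were found for 5 members (13.9%) against 6.43% of promoters, AGAACA for 3 (8.33%) against 16.1%, and TATAAA for 5 (13.9%) against 12.4%. The D-box TTATGTAA, the cAMP response element TGACGTCA and the C/EBP palindrome TTGCGCAA were found for 0 members, against 0.819%, 1.55% and 0.164% of promoters. No motif holds the letters of another. A member was counted once if any of its starts held the motif, while the share over all promoters counts each start. The shares of members and of promoters are therefore not in the same unit. Some member runs lie partly or wholly inside the gene as counted. For Aldh6a1, Got2, Sardh and Tdo2 the AGGTCA found lies inside the gene. For Amt, Prodh2 and Uroc1 the run lies partly inside, with AGGTCA in the part outside.

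In vehicle livers, levels per transcript length spanned a wide range. Hpd, a dioxygenase of tyrosine breakdown, had the highest mean at 816 ± 298 FPKM (the authors' values scaled for gene length and library depth), followed by Tat at 398 ± 112 and Haao at 390 ± 123 FPKM. Tat and Haao did not differ beyond their spread. Mccc1, a carboxylase subunit of leucine breakdown, was lowest at 2.96 ± 0.982 FPKM, then Afmid at 7.78 ± 4.84 and Sdsl at 10.6 ± 2.55 FPKM. The order at the top was the same under napabucasin, with 617 ± 121 FPKM for Hpd, 378 ± 87.3 for Tat and 377 ± 46.1 for Haao.

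Most of the 42 genes had lower mean levels in napabucasin livers, led by the transaminases Gpt2 and Got1, but none passed the test after adjustment over all genes. edgeR's quasi-likelihood test called 0 members at a Benjamini-Hochberg adjusted p under 0.05, where it called 0% of the 14244 genes tested. At an unadjusted p under 0.05 it gave 7 members lower (16.7%), against 5.83% of all genes, and 0 members higher, against 9.34%. The 7 were Gpt2, Got1, Sdsl, Amt, Hal, Kmo and Gldc. Log2 fold changes were below 0 for 37 members (88.1%) and for 49.9% of all genes, and their median was -0.29 over the members and 0.00 over all genes. DESeq2 called 2 members at an adjusted p under 0.05, Gpt2 and Got1, against 1.64% of all genes, and limma-voom called 1, Gpt2, against 0.927%. The groups did not overlap, with every napabucasin library below every vehicle library, for 1 member, Gpt2 (2.38%), against 0.934% of all genes. The reverse held for 0 members, against 1.21% of all genes. In whole liver, fewer hepatocytes and less RNA per hepatocyte cannot be told apart.

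**Figure D1:**
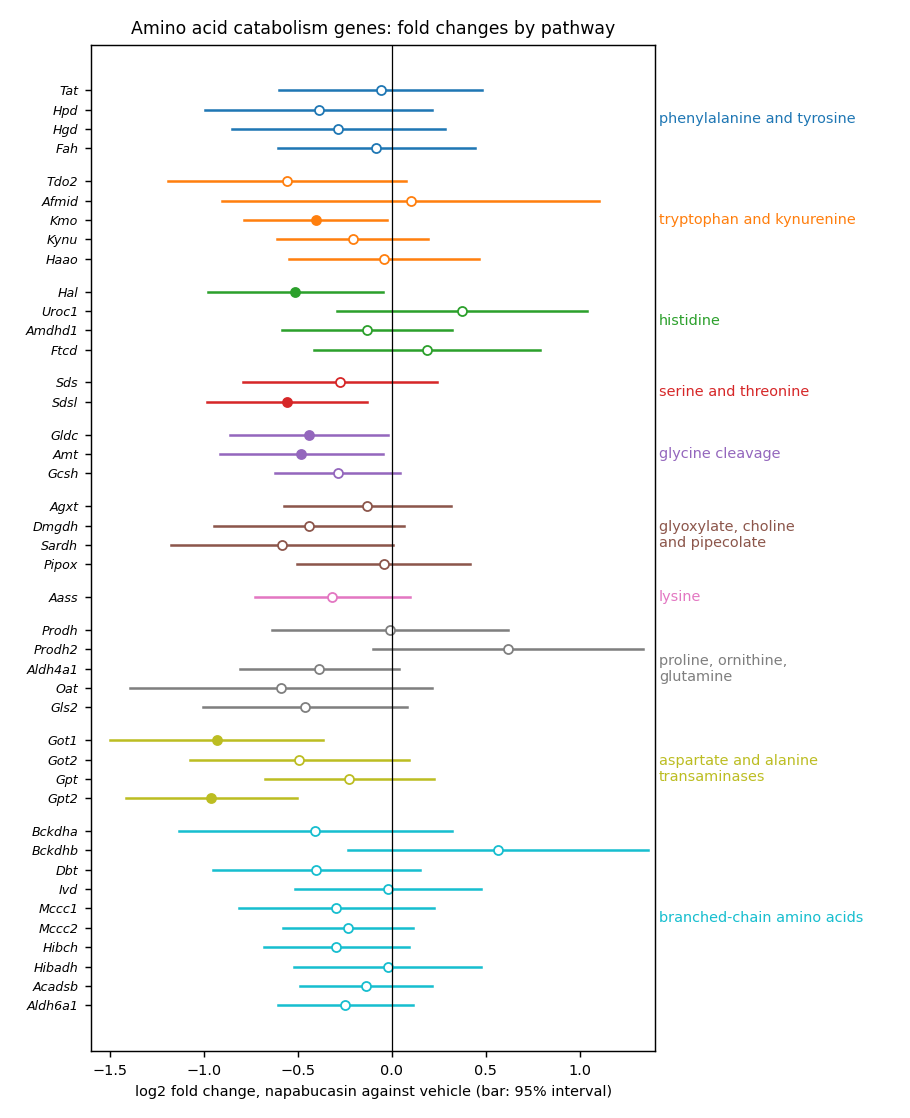
Log2 fold change of each of the 42 genes, napabucasin against vehicle, with its 95% interval, grouped and coloured by pathway; filled circles have an unadjusted p under 0.05. Gpt2 and Got1 lie farthest to the left, 37 of the 42 circles lie left of 0, and Prodh2 and Bckdhb lie farthest to the right.

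The number of lower members depended on single libraries. Vehicle replicate 2 was the lowest of its group for 33 of the 42 genes, and lay below every napabucasin library for 15 of them. Its summed hepatocyte markers were 56590 CPM, where the other vehicle libraries had up to 167200 CPM. Without that library 15 members were lower at an unadjusted p under 0.05, against 6.6% of all genes, and 6 had groups that did not overlap, against 2.5%: Gpt2, Got1, Amt, Gcsh, Aldh4a1 and Aldh6a1. Leaving out vehicle replicate 5 or napabucasin replicate 1 gave 3 of 42 members lower each, against 3.15% and 4% of all genes. Leaving out napabucasin replicate 2 gave 4 of 42, against 3.17%. Gpt2 and Got1 were among the lower members with any 1 library left out. With the replicate number as a block, 9 of 42 members were lower, the same 7 with Got2 and Sardh, against 8.81% of all genes. The limma-voom fit gave 13 of 42, against 11%. With library size as the only scaling, 2 of 42 members were lower, again Gpt2 and Got1, against 2.53% of all genes. That scaling left 30 of 42 log2 fold changes below 0, against 42.8% of all genes, and put Tat, Fah, Haao, Pipox, Prodh, Ivd and Hibadh above 0.

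**Figure D2:**
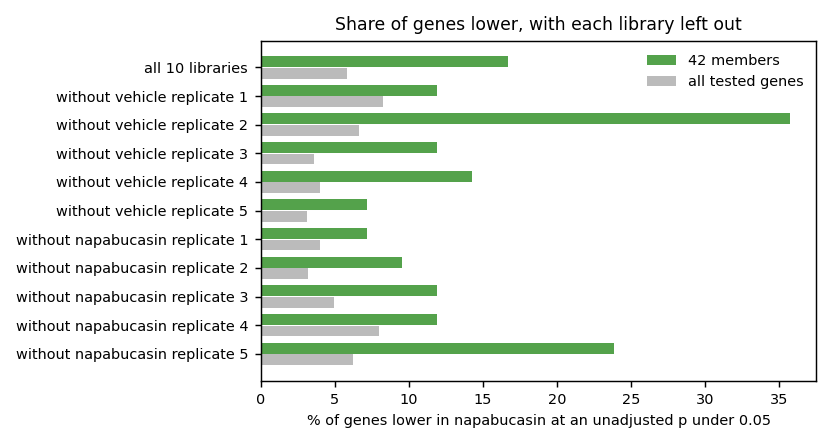
Share of genes lower in napabucasin at an unadjusted p under 0.05, in percent, with all 10 libraries and with each library left out, for the 42 members (green) and all tested genes (grey). The member share is 16.7% with all libraries and is highest without vehicle replicate 2, where 15 of 42 are lower.

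The transaminases of aspartate and alanine had the lowest median log2 fold change of the 10 pathways, -0.71, and 4 of 4 were below 0. Gpt2, the mitochondrial alanine transaminase (chr8:85492576-85527560, GRCm38), measured 218, 230.1, 287, 218 and 298 CPM in vehicle replicates 1 to 5 and 94.8, 94.1, 142, 153 and 159 CPM in napabucasin replicates 1 to 5. Every napabucasin library lay below every vehicle library, with napabucasin replicates 1 and 2 lowest. The means were 250.2 ± 39.0 and 129 ± 31.7 CPM, and the log2 fold change was -0.96 ± 0.21 (95% interval -1.41 to -0.51, unadjusted p = 0.000477, adjusted p = 0.157, edgeR). DESeq2 gave Gpt2 an adjusted p of 0.00304, the lowest over 25 alternatives, whose highest was 0.459. Gpt2 overlaps no other annotated gene.

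Got1, the cytosolic aspartate transaminase (chr19:43499752-43524605), measured 240.4, 130, 255, 181 and 236 CPM in the 5 vehicle libraries and 79.6, 114, 80.1, 94.1 and 179 CPM in the 5 napabucasin libraries. The groups overlapped only through vehicle replicate 2, at 130 CPM, which lay below napabucasin replicate 5 at 179 CPM. The means were 208 ± 52.1 and 109 ± 41.2 CPM, and the log2 fold change was -0.93 ± 0.26 (interval -1.50 to -0.36, unadjusted p = 0.00342, adjusted p = 0.221, edgeR). DESeq2's adjusted p for Got1 was 0.0434, and over the 25 alternatives it ran from 0.0434 to 0.684. The promoter shown above for Got1 has AGGTCA near its far end, and that of Gpt2 has none of the motifs.

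Got2, the mitochondrial aspartate transaminase, measured 338, 320.1, 423, 367 and 497 CPM in vehicle and 129.5, 224, 306, 339.6 and 383 CPM in napabucasin libraries. Napabucasin replicates 1, 2 and 3 lay below every vehicle library, and replicates 4 and 5 lay within the vehicle range. Got2 had a log2 fold change of -0.49 ± 0.27 (unadjusted p = 0.091). Gpt, the cytosolic alanine transaminase, measured 289.9, 148, 253, 219.5 and 288 CPM in vehicle and 229, 213, 223, 166 and 194 CPM in napabucasin libraries, with every napabucasin value inside the vehicle range. For Gpt the log2 fold change was -0.23 ± 0.21 (unadjusted p = 0.298).

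The cytosolic and mitochondrial enzymes of each reaction were compared by their log2 ratio within a library. Gpt over Gpt2 was -0.09 ± 0.38 in vehicle and 0.70 ± 0.52 in napabucasin livers (SD, n = 5), a difference of 0.79 (exact two-sided permutation test, p = 0.0317). Adjusted over the 7 ratios computed, that p was 0.222. The smallest p these groups allow is 0.0079, and adjusted over 7 ratios a lone ratio could not go below 0.0556. By replicate number, Gpt over Gpt2 was higher under napabucasin in 5 of 5 pairs (exact sign-flip permutation p = 0.0625, the smallest that 5 pairs allow, adjusted p = 0.438). Napabucasin replicates 1 and 2 had the highest ratios, 1.27 and 1.17, and vehicle replicate 1, at 0.41, lay above napabucasin replicates 4 and 5. Got1 over Got2 differed by -0.39 between the groups (exact permutation p = 0.238, adjusted p = 0.458). The other 5 ratios, Sds over Sdsl, Prodh over Prodh2, Bckdha over Bckdhb, Mccc1 over Mccc2 and Dmgdh over Sardh, differed by -0.53 to 0.27, with exact permutation p from 0.206 to 0.857.

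**Figure D3:**
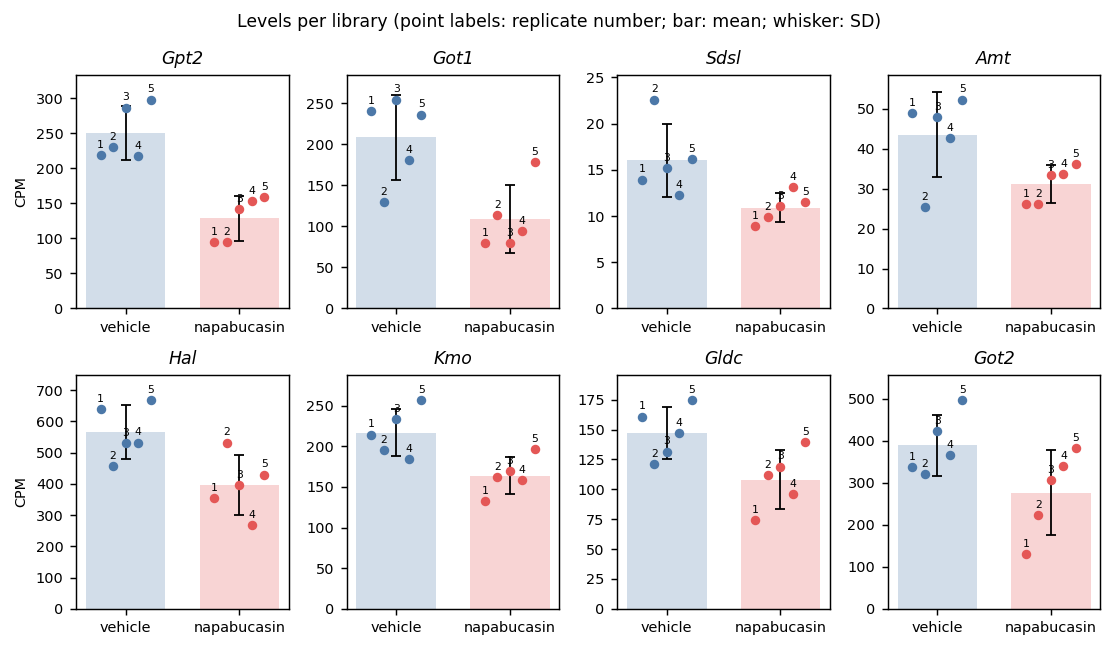
CPM of Gpt2, Got1, Sdsl, Amt, Hal, Kmo, Gldc and Got2 in each library; points are libraries labelled by replicate number, bars are group means and whiskers 1 SD. All napabucasin points for Gpt2 lie below all vehicle points, while in the other panels 1 or more libraries overlap.

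The 3 genes of the glycine cleavage system, which splits glycine into carbon dioxide, ammonia and a folate-bound carbon, had a median log2 fold change of -0.44. Gldc, the decarboxylase subunit, measured 161, 121, 132, 147 and 175 CPM in vehicle and 74.5, 112, 119, 96.0 and 139 CPM in napabucasin libraries. Only napabucasin replicate 5, at 139 CPM, lay above any vehicle library, namely replicates 2 and 3. The log2 fold change of Gldc was -0.44 ± 0.20 (unadjusted p = 0.041, adjusted p = 0.317).

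Amt, the aminomethyltransferase subunit, measured 48.8, 25.4, 47.9, 42.7 and 52.3 CPM in vehicle and 26.1, 26.0, 33.5, 33.6 and 36.2 CPM in napabucasin libraries. Vehicle replicate 2 was the lowest of all 10, and the other 4 vehicle libraries lay above every napabucasin library. Its log2 fold change was -0.48 ± 0.20 (unadjusted p = 0.0317, adjusted p = 0.307). Gcsh, the lipoate carrier subunit, had means of 109 ± 11.6 and 89.2 ± 9.08 CPM and a log2 fold change of -0.29 ± 0.15 (unadjusted p = 0.0838). As for Amt, its 4 other vehicle libraries lay above every napabucasin library, and vehicle replicate 2, at 89.8 CPM, lay within them.

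Serine and threonine are deaminated by Sds, serine dehydratase, and the related Sdsl, whose genes lie 3715 bases apart on chromosome 5. Sdsl measured 13.9, 22.6, 15.1, 12.2 and 16.1 CPM in vehicle and 8.92, 9.90, 11.1, 13.1 and 11.5 CPM in napabucasin libraries. Vehicle replicate 2 was the highest library for Sdsl, unlike most members, and the groups overlapped where vehicle replicate 4 lay below napabucasin replicate 4. The log2 fold change of Sdsl was -0.56 ± 0.20 (unadjusted p = 0.0138, adjusted p = 0.262), and it was -0.26 (unadjusted p = 0.177) without the 3 libraries richest in ribosomal RNA genes. Sds had means of 155 ± 48.2 and 128 ± 29.3 CPM and a log2 fold change of -0.27 ± 0.24 (unadjusted p = 0.273). Sds shares sequence span with Plbd2, and the counts of its overlapping genes came to 52.3% of its own, so its value is uncertain where counting took no account of strand.

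Histidine breakdown begins with Hal, the ammonia-lyase that makes urocanate, and runs through Uroc1, Amdhd1 and Ftcd. The 4 genes did not lie on the same side of 0, with a median log2 fold change of 0.03. Hal (chr10:93488768-93519304) measured 640, 457, 532, 533 and 669 CPM in vehicle and 355, 532, 397, 268 and 429.5 CPM in napabucasin libraries. Napabucasin replicate 2 lay above vehicle replicates 2 and 3, and the other 4 napabucasin libraries lay below every vehicle library. The log2 fold change of Hal was -0.51 ± 0.22 (unadjusted p = 0.0327, adjusted p = 0.309).

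Uroc1, the urocanate hydratase of the next step, measured 438, 289, 338, 358 and 409 CPM in vehicle and 857, 498, 324, 215 and 479 CPM in napabucasin libraries. Napabucasin replicate 1 was the highest of all 10 and napabucasin replicate 4 the lowest. Its log2 fold change was 0.37 ± 0.31 (unadjusted p = 0.247). Ftcd, which hands the last carbon to folate, had the same highest and lowest libraries, from 206 CPM in napabucasin replicate 4 to 694 in replicate 1, with 297 to 423 CPM in vehicle libraries. Amdhd1, the imidazolonepropionase, lies 4033 bases from Hal on chromosome 10, and had means of 334 ± 50.4 and 305 ± 72.9 CPM. Log2 fold changes were 0.19 for Ftcd and -0.13 for Amdhd1.

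In the tryptophan pathway, 4 of 5 genes had log2 fold changes below 0, with a median of -0.21. Kmo, the monooxygenase that hydroxylates kynurenine, measured 214, 195, 234, 184 and 257 CPM in vehicle and 133, 162, 169.7, 158 and 196 CPM in napabucasin libraries. Napabucasin replicate 5 lay above vehicle replicates 2 and 4, and the other 4 napabucasin libraries lay below every vehicle library. The log2 fold change of Kmo was -0.41 ± 0.18 (unadjusted p = 0.0377, adjusted p = 0.315). Kmo overlaps Fh1 on the opposite strand, whose counts came to 69.9% of those of Kmo, so reads of both could mix if strand was not used.

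Tdo2, the dioxygenase that commits tryptophan to breakdown, had means of 765 ± 299.9 and 520.4 ± 174 CPM and a log2 fold change of -0.56 ± 0.29 (unadjusted p = 0.0799). Its vehicle libraries ran from 541 to 1209 CPM and its napabucasin libraries from 357 to 802 CPM. Kynu, kynureninase, and Haao, the dioxygenase after it, had log2 fold changes of -0.21 and -0.04, and that of Haao lay above 0 in 9 of 25 alternatives. Afmid, the formamidase of the second step, had nearly equal means and a wide spread, from 5.10 CPM in vehicle replicate 2 to 58.9 in napabucasin replicate 1. Its log2 fold change was 0.10 ± 0.47, and Tk1, which overlaps it, had counts equal to 107% of its own.

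No gene of phenylalanine and tyrosine breakdown had an unadjusted p under 0.05, and 4 of 4 log2 fold changes were below 0, with a median of -0.18. Hpd, which makes homogentisate, had the smallest p of the 4. It measured 2258, 852, 2125, 1308 and 2183 CPM in vehicle and 1217, 1154, 1169, 1331 and 1787 CPM in napabucasin libraries. Vehicle replicate 2 was the lowest of all 10, vehicle replicates 1, 3 and 5 were the highest, and napabucasin replicate 5 stood above its group. The log2 fold change of Hpd was -0.39 ± 0.28 (unadjusted p = 0.186). Tat, the transaminase that starts tyrosine breakdown, had 961 ± 262 and 921 ± 209 CPM (log2 fold change -0.06). Hgd, which opens the ring of homogentisate, had 365 ± 119 and 299.8 ± 59.3 CPM (log2 fold change -0.28). Fah, the last enzyme, had 607 ± 186 and 573 ± 108 CPM (log2 fold change -0.08).

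Among enzymes of glyoxylate, choline-derived glycines and pipecolate, 4 of 4 were below 0, with a median of -0.28. Sardh, which demethylates sarcosine to glycine, measured 568, 248, 529, 426 and 649 CPM in vehicle and 234, 279.5, 362, 269 and 469 CPM in napabucasin libraries. Vehicle replicate 2 and napabucasin replicate 5 made the groups overlap. Sardh had a log2 fold change of -0.59 ± 0.28 (unadjusted p = 0.0519). Dmgdh, the preceding demethylase, had 256 ± 69.3 and 189 ± 43.2 CPM and a log2 fold change of -0.44 ± 0.24 (unadjusted p = 0.0832). Agxt, which detoxifies glyoxylate by transamination, and Pipox, which oxidizes pipecolate and sarcosine, had log2 fold changes of -0.13 and -0.04. Aass, the enzyme that starts lysine breakdown, measured 307, 216, 267, 178 and 246 CPM in vehicle and 224, 215, 186, 163 and 186 CPM in napabucasin libraries. The Aass values overlapped through vehicle replicates 2 and 4, and the log2 fold change was -0.32 ± 0.19 (unadjusted p = 0.122).

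For proline, ornithine and glutamine, 4 of 5 log2 fold changes were below 0, with a median of -0.39. Aldh4a1, the dehydrogenase that yields glutamate from proline, measured 179, 116, 215, 195 and 227 CPM in vehicle and 160.4, 146, 129, 135 and 141 CPM in napabucasin libraries. Vehicle replicate 2 was the lowest of all 10, and the other 4 vehicle libraries lay above every napabucasin library. The log2 fold change of Aldh4a1 was -0.39 ± 0.20 (unadjusted p = 0.0699). Oat, ornithine aminotransferase, had 604 ± 382 and 401 ± 116 CPM, and vehicle replicates 1 and 3 lay far above the rest at 1154 and 856 CPM. Gls2, the liver glutaminase, had 405 ± 117 and 294 ± 82.0 CPM, with 605 CPM in vehicle replicate 1. Their log2 fold changes were -0.59 ± 0.37 (unadjusted p = 0.137) and -0.46 ± 0.25 (unadjusted p = 0.089). Oat overlaps Fgfr2, whose counts over the whole gene came to 12.6% of those of Oat.

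Prodh, proline dehydrogenase, had nearly equal means, 185 ± 74.1 and 183 ± 53.5 CPM, and its log2 fold change of -0.01 lay above 0 in 12 of 25 alternatives. Prodh overlaps Dgcr6 on the opposite strand, whose counts over the whole gene came to 24.3% of those of Prodh. Prodh2, which oxidizes hydroxyproline, measured 247, 258, 197, 167 and 209 CPM in vehicle and 668, 341, 216, 149.8 and 279 CPM in napabucasin libraries. Napabucasin replicates 1, 2 and 5 lay above every vehicle library and replicate 4 lay below them. Its log2 fold change was 0.62 ± 0.33 (interval -0.10 to 1.33, unadjusted p = 0.0863), the highest among the 42, and it was 0.20 without napabucasin replicate 1 and 0.80 (unadjusted p = 0.0191) without napabucasin replicate 4. Leaving out the latter was the single alternative that gave a higher member at an unadjusted p under 0.05, against 11.3% of all genes.

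The 10 branched-chain genes had a median log2 fold change of -0.24, and none had an unadjusted p under 0.05. The smallest p was that of Hibch, a hydrolase of valine breakdown, which measured 85.8, 50.2, 74.8, 63.9 and 76.8 CPM in vehicle and 47.8, 64.2, 58.7, 49.2 and 66.3 CPM in napabucasin libraries. Its groups overlapped through vehicle replicates 2 and 4, and the log2 fold change was -0.29 ± 0.18 (unadjusted p = 0.122). The core of the branched-chain dehydrogenase complex was uneven. Bckdha, its alpha subunit, had 29.0 ± 16.4 and 21.8 ± 5.36 CPM (log2 fold change -0.41), and Dbt, its transacylase, had 94.3 ± 37.3 and 71.3 ± 16.4 CPM (log2 fold change -0.40). Bckdhb, the beta subunit, measured 63.5, 73.1, 80.2, 63.2 and 65.6 CPM in vehicle and 240.3, 96.8, 50.0, 48.8 and 75.0 CPM in napabucasin libraries. Napabucasin replicate 1 stood far above all others for Bckdhb, and napabucasin replicates 3 and 4 lay below every vehicle library. Its log2 fold change was 0.56 ± 0.37 (unadjusted p = 0.153), and it was -0.03 without napabucasin replicate 1.

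The leucine enzymes Ivd, isovaleryl-CoA dehydrogenase, and Mccc1 and Mccc2, the subunits of methylcrotonyl-CoA carboxylase, had log2 fold changes of -0.02, -0.29 and -0.23. Hibadh, the next dehydrogenase of valine breakdown, had 355 ± 107 and 349 ± 63.2 CPM (log2 fold change -0.02). Acadsb, a dehydrogenase of isoleucine breakdown, had 104 ± 10.5 and 94.2 ± 14.2 CPM (log2 fold change -0.14). It overlaps Fgfr2, and the whole-gene counts of its overlapping genes came to 60.3% of those of Acadsb. Aldh6a1, the last dehydrogenase of valine breakdown, had 353 ± 39.2 and 297 ± 19.1 CPM and a log2 fold change of -0.25 ± 0.17 (unadjusted p = 0.163). Its 5 napabucasin libraries ran from 280.1 to 319 CPM, and only vehicle replicate 2, at 297 CPM, lay within that range.

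The 5 members with a log2 fold change above 0 shared a library. Uroc1, Ftcd, Prodh2, Bckdhb and Afmid each had their highest value of the 10 libraries in napabucasin replicate 1. So did Ivd, whose log2 fold change was -0.02. The same library was the lowest of the 10 for 15 other members, Got2 among them at 129.5 CPM. Without it alone, log2 fold changes were -0.096 for Ftcd, -0.031 for Bckdhb, -0.305 for Afmid and 0.195 for Prodh2. That of Uroc1 stayed above 0 with any 1 library left out. Napabucasin replicate 1 was among the 3 richest in ribosomal RNA genes, with napabucasin replicate 2 and vehicle replicate 2. The latter was the lowest of its group for 33 of the 42 genes. Without these 3 libraries the log2 fold changes were -0.17 for Uroc1, -0.21 for Ftcd, -0.22 for Bckdhb, -0.54 for Afmid and 0.08 for Prodh2. In that fit 41 of 42 members lay below 0, against 50.1% of all genes. In that setting 8 members were lower at an unadjusted p under 0.05, against 3.42% of all genes. The part of RNA quality in these values was not tested.

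**Figure D4:**
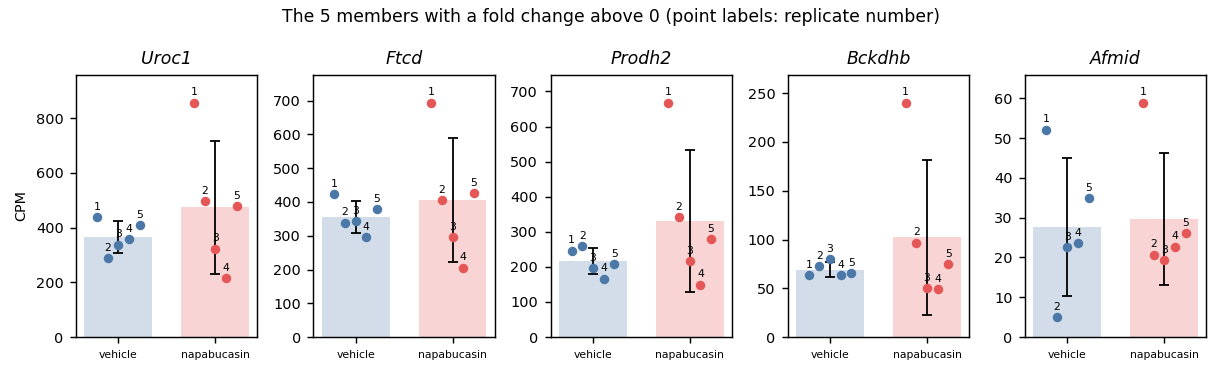
CPM of Uroc1, Ftcd, Prodh2, Bckdhb and Afmid in each library; points are libraries labelled by replicate number, bars are group means and whiskers 1 SD. In each panel the highest point is napabucasin replicate 1, for Bckdhb at 240.3 CPM against 96.8 CPM in the next library.

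Summed over the 42 genes, levels came to 13040 ± 2926 CPM in the vehicle group and to 10990 ± 1009 CPM in the napabucasin group (SD, n = 5), with 8833 CPM in vehicle replicate 2. The log2 ratio of these means was -0.25, and it was -0.14 per raw library total and -0.09 with mitochondrially encoded genes out of the total.

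Other genes of amino acid breakdown, 47 tested beyond the 42, had a median log2 fold change of -0.23, with 40 below 0. At an unadjusted p under 0.05, 6 were lower, against 5.83% of all genes, and 1 was higher, against 9.34%. After adjustment 0 passed. The higher gene was Kyat1, a kynurenine aminotransferase, at 156 ± 41.4 and 353 ± 248 CPM, with its highest value, 769.9 CPM, in napabucasin replicate 1 (log2 fold change 1.18 ± 0.38, unadjusted p = 0.00836). The lower genes were Hykk (-0.47), a kinase of lysine breakdown, Echs1 (-0.64), a hydratase of branched-chain and fatty acid breakdown, Aadat (-0.59), an aminoadipate aminotransferase, Pccb (-0.59) and Pcca, the subunits of propionyl-CoA carboxylase, and Mut, the mutase after it. The values in parentheses are log2 fold changes. The count of lower genes in this list was 14 without vehicle replicate 2, against 6.6% of all genes. It was 0 without vehicle replicate 3 or 5, against 3.59% and 3.15%, and 1 without napabucasin replicate 1, against 4%. Leaving out napabucasin replicate 2 or 3 gave 2, against 3.17% and 4.97%. With the replicate block 8 were lower and 3 higher, against 8.81% and 11.8% of all genes. Kyat1 had a log2 fold change of 0.67 (unadjusted p = 0.0241) without napabucasin replicate 1, 0.34 (unadjusted p = 0.202) without the 3 libraries richest in ribosomal RNA genes and 0.19 (unadjusted p = 0.492) with 1 surrogate variable. Without those 3 libraries 0 genes of the list were higher, against 5.28% of all genes, and 3 were lower, against 3.42%. With the surrogate variable 0 were higher, against 3.93%, and 1 was lower, against 3.01%. The count of higher genes was 3 without vehicle replicate 1, against 9.65% of all genes. It was 2 without napabucasin replicate 3, against 9.66%, and 4 without napabucasin replicate 4, against 11.3%.

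Of 12 known regulators of these genes, 3 were lower and 0 higher at an unadjusted p under 0.05, against 5.83% and 9.34% of all genes. The median log2 fold change of the regulators was -0.09. Cebpa, a hepatocyte transcription factor, measured 172, 177, 209, 187 and 221 CPM in vehicle and 62.2, 111, 145, 159.9 and 126 CPM in napabucasin libraries. Its log2 fold change was -0.68 ± 0.23 (unadjusted p = 0.0115, adjusted p = 0.256). Its groups did not overlap, which held in this direction for 1 of the 12 regulators and for 0.934% of all genes. Onecut1, a hepatocyte factor at low level, had 3.76 ± 1.43 and 1.67 ± 0.540 CPM (log2 fold change -1.17 ± 0.33, unadjusted p = 0.00357, adjusted p = 0.223). Foxo1, a factor restrained by insulin, had 26.6 ± 10.3 and 16.9 ± 4.73 CPM (log2 fold change -0.65 ± 0.26, unadjusted p = 0.0262). Hnf4a had a log2 fold change of -0.44 (unadjusted p = 0.0638), and Gcgr, the glucagon receptor, was highest in napabucasin replicate 1 at 961 CPM, as were Bckdhb and Prodh2.

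Of 12 glucocorticoid and fasting responsive genes, 1 was lower at an unadjusted p under 0.05, against 5.83% of all genes. It was Fkbp5, at 49.9 ± 27.3 and 27.3 ± 9.41 CPM (log2 fold change -0.87 ± 0.36, unadjusted p = 0.0289). The count of lower genes in this list was 0 without vehicle replicate 5, napabucasin replicate 1 or napabucasin replicate 2. The shares of all genes were then 3.15%, 4% and 3.17%. Of 8 tested targets of ATF4, the factor that answers amino acid shortage, 0 had an unadjusted p under 0.05, against 15.2% of all genes. Among 12 clock genes 2 were lower, against 5.83% of all genes, and 2 higher, against 9.34%. They were Dbp (log2 fold change -2.95), Hlf (-1.06), Cry1 (1.27) and Arntl (1.11). With the replicate block 3 clock genes were lower and 4 higher, against 8.81% and 11.8% of all genes. Several members, Tat among them, are known to follow a daily rhythm, and the part of the clock in the values of the 42 genes was not tested.

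Markers of periportal hepatocytes, the zone where much of amino acid breakdown takes place, had a median log2 fold change of -0.46. At an unadjusted p under 0.05, 5 of 10 were lower, against 5.83% of all genes, and 0 higher, against 9.34%. The 5 were Aldh1b1 (-0.79), Pigr (-0.71) and the urea cycle genes Cps1 (-0.58), Ass1 (-0.69) and Arg1 (-0.49), given as log2 fold changes. The count of lower periportal markers was 2 without vehicle replicate 3 or napabucasin replicate 1, against 3.59% and 4% of all genes. It was 3 without vehicle replicate 5 or napabucasin replicate 4, against 3.15% and 8%. With 1 surrogate variable it was 1, against 3.01%. Their list summed to 7745 to 12340 CPM in vehicle and 6628 to 8637 CPM in napabucasin libraries. Of 12 pericentral markers 1 was lower, Tbx3 (log2 fold change -1.28), and 0 were higher, against 5.83% and 9.34% of all genes. With the replicate block 1 was higher, against 11.8%. The count of higher pericentral markers was also 1 with library size only (9.88% of all genes), DESeq2 (10.2%) and 1 surrogate variable (3.93%). It was 1 without the 3 libraries richest in ribosomal RNA genes, vehicle replicate 5 or any 1 of napabucasin replicates 1 to 4. With limma-voom it was 2, against 11.3%. The pericentral median was -0.07. Of 7 general hepatocyte markers 0 had an unadjusted p under 0.05, against 15.2% of all genes. Their log2 fold changes were below 0 for 7 of 7, against 49.9% of all genes, with a median of -0.26. Their list summed to 56590 to 167200 CPM in vehicle and 79510 to 140900 CPM in napabucasin libraries. The part of zone or of hepatocyte share in the values of the 42 genes was not tested.

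Markers of several other liver cells had higher means in napabucasin livers. T cell markers were higher for 7 of 7 genes at an unadjusted p under 0.05, against 9.34% of all genes. They summed to 9.89 to 14.3 CPM in vehicle and 17.7 to 34.4 CPM in napabucasin libraries. B and plasma cell markers were higher for 5 of 6 genes, and sinusoidal endothelial and stellate markers for 3 of 6 each. Kupffer cell markers were higher for 1 of 6, against the same 9.34% of all genes. The count for stellate markers was 5 with the replicate block, without vehicle replicate 4 or with library size only. The shares of all genes higher were then 11.8%, 7.27% and 9.88%. The count for Kupffer markers was 0 without napabucasin replicate 1, 2 without vehicle replicate 4 and 3 without napabucasin replicate 5. With 1 surrogate variable, counts of higher markers were 4 for T cells, 5 for B and plasma cells and 5 for stellate cells. They were then 1 for sinusoidal and 0 for Kupffer cells, against 3.93% of all genes. With limma-voom the sinusoidal count was 5, against 11.3%. Every log2 fold change in these lists was above 0. B and plasma cell markers summed to 41.9 to 101 CPM in vehicle and 72.3 to 119 CPM in napabucasin libraries, sinusoidal markers to 46.4 to 148 and 120.5 to 201 CPM, stellate markers to 261 to 375 and 318 to 806 CPM, and Kupffer markers to 232 to 1242 and 460.3 to 1775 CPM. Of 6 cholangiocyte, 4 erythroid and 2 pancreatic acinar markers tested, 0 had an unadjusted p under 0.05, against 15.2% of all genes. None of the tested markers was at 0 in a whole group, and the part of these cells in the values of the 42 genes was not tested.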

How the data were processed

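Per the labels' protocols, whole-liver RNA of 10 mice was poly(A)-selected and primed with random hexamers. Deposited counts are whole reads per gene without normalization. The submitters' processing notes name featureCounts 1.5.0-p3, HISAT2 2.0.5, CASAVA and the build GRCm38 (mm10). No source used here gives the annotation release or strand setting, and reads of overlapping genes may not be separated. FPKM values, deposited by the authors, served only for levels between genes and for alternatives. The main test was edgeR 4.0.16 (R 4.3.3) on the counts of all genes: filterByExpr, which left 14244 of 26567 genes with a count above 0, TMM scaling, the robust quasi-likelihood F test on treatment, and Benjamini-Hochberg adjustment with a threshold of 0.05. The common biological coefficient of variation was 0.325, at 14124484 to 17759967 counts per library. The number of libraries limits the precision more plainly than depth, since the lowest member count in a library was 111. The procedure was tested on simulated counts with the same spread for every gene and no shifts of single libraries. That test therefore does not cover the library differences seen here.

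The members and the other gene lists were chosen with earlier results of these data known. Of 181 list names 179 were matched. Members with an unadjusted p under 0.05, the member of smallest p in each other pathway, and both genes of a ratio with an exact p under 0.05 are given with every library, and up to 5 genes of smallest p are named from each other list. Got2, Uroc1, Prodh2 and Bckdhb are also given by library, chosen after their values were seen, as were Mut and Gcgr for naming. Ratios of genes used CPM with 0.5 added. Promoters came from RefSeq, GRCm38.p6.

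Alternatives were size-factor or no composition scaling, other filters, a test without robust estimation, DESeq2 1.42.0, quality-weighted limma-voom (limma 3.58.1), limma on log2(FPKM + 1) and log2(FPKM + 0.1), a replicate block, 1 surrogate variable (sva 3.50.0), mitochondrially encoded or non-coding genes left out, each library left out, and the 3 libraries richest in ribosomal RNA genes left out. The count of members without overlap with each library left out was added after seeing the data. No label says whether libraries of equal number share a day or batch. Libraries numbered 1 to 5 deviated from their group means together, with correlations of 0.154, 0.227, 0.208, 0.27 and 0.278. All exceed 0.1 but are low, and the labels do not say that equal numbers are pairs. The numbers were therefore taken as possible pairs only. The main tests stayed unpaired, and values with the replicate block are given where they change a call or a count. Of the libraries, 6 of 10 libraries correlated best with their own number.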

Additional observations from a re-analysis of the deposited data

Results flagged for a closer look

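In 92 groups of 5 libraries, 7 had a highest or lowest library whose gap to the nearest other exceeded 0.71 of the group's range. Chance flags about 1 in 20 groups, here 4.6. Napabucasin replicate 1 was far above its group for Bckdhb, at 240 CPM where the other 4 had 48.8 to 96.8, and for Afmid, at 58.9 CPM against 19.3 to 26.2. Napabucasin replicate 5 was far above its group for Hpd, at 1790 CPM where the others had 1150 to 1330, and for Haao, at 565 CPM against 427 to 460. Vehicle replicate 1 was far above its group for Gls2, at 605 CPM against 298 to 386, and for Dbt, at 159 CPM against 64.5 to 86.2. The same vehicle library had 19.0% of its counts in mitochondrially encoded genes, where the other vehicle libraries had 7.03% to 8.78%.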

How the results depend on the processing

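The median log2 fold change of the 42 genes stayed below 0 in all 25 alternatives, from -0.371 without vehicle replicate 2 to -0.172 with library size only, and Gpt2 and Got1 kept an unadjusted p under 0.05 in 25 of 25. The count of lower members at an unadjusted p under 0.05 was 2 with library size only and 13 with limma-voom. With 1 library left out it ran from 3 (vehicle replicate 5 or napabucasin replicate 1) to 15 (vehicle replicate 2), and the count of higher members from 0 to 1. DESeq2 called 2 members at an adjusted p under 0.05 and limma-voom 1. The causes of these differences were not tested.

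With the replicate block, 9 members were lower (8.81% of all genes), 0 passed after adjustment, and the median was -0.246. Among the other lists, counts moved by over 1.5 times or from 0 for the higher genes of other amino acid breakdown (3), the clock (4), pericentral markers (1) and stellate markers (5), and no other list count did. Of all genes, 11.8% were higher with the block. Haao, Prodh and Hibadh had log2 fold changes of 0.014, 0.041 and 0.011 with the block. With library size only, log2 fold changes were 0.051 for Tat, 0.027 for Fah, 0.078 for Haao, 0.056 for Pipox, 0.116 for Prodh, 0.075 for Ivd and 0.095 for Hibadh. With limma-voom they were 0.013 for Fah, -0.059 for Afmid, 0.06 for Haao, -0.013 for Ftcd, 0.046 for Prodh, -0.034 for Bckdhb and 0.094 for Hibadh. On FPKM, Haao was at 0.005 in all 3 fits, and Prodh at 0.031 with 1 added, filtered or not, and at 0.035 with 0.1 added. With 1 surrogate variable they were 0.326 for Tat, -0.405 for Afmid, 0.058 for Haao, -0.271 for Uroc1, -0.376 for Ftcd, -0.232 for Prodh2, 0.072 for Bckdha, -0.444 for Bckdhb, 0.089 for Hibadh and 0.025 for Acadsb. Without the 3 libraries richest in ribosomal RNA genes they were -0.539 for Afmid, -0.172 for Uroc1, -0.209 for Ftcd and -0.22 for Bckdhb.

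With each library left out in turn, log2 fold changes ran from -0.199 to 0.033 for Tat, -0.193 to 0.053 for Fah, -0.305 to 0.442 for Afmid, -0.167 to 0.066 for Haao, -0.096 to 0.354 for Ftcd, -0.163 to 0.042 for Pipox, -0.185 to 0.166 for Prodh, -0.031 to 0.741 for Bckdhb, -0.203 to 0.103 for Ivd and -0.12 to 0.152 for Hibadh. The log2 ratio of Mccc1 over Mccc2 differed between groups by -0.157 to 0.065 and that of Sds over Sdsl by -0.006 to 0.45. All 10 libraries had at least 111 counts for every member, so the spread between libraries, not depth, set the width of the intervals.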
